A study of Mus musculus with 100 samples.

Results

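The lysosome and vacuolar-type ATPase (V-ATPase) loci are the ChIP-seq regions whose nearest annotated gene is one of 40 named genes, in every one of 15 tables of tag counts. The genes were taken by name and not by a measured value, though earlier results of these data were known by then. They are 8 proteases of the cathepsin family (Ctsa, Ctsb, Ctsc, Ctsd, Ctsh, Ctsl, Ctss, Ctsz), 8 other enzymes and proteins of the lysosomal lumen (Asah1, Gaa, Glb1, Gusb, Hexa, Lipa, Neu1, Npc2), 6 membrane proteins (Cd63, Cd68, Lamp1, Lamp2, Mcoln1, Npc1), 3 regulators (Sqstm1, Tfe3, Tfeb), 5 subunits of the V0 sector (Atp6v0a1, Atp6v0b, Atp6v0c, Atp6v0d1, Atp6v0e), 8 subunits of the V1 sector (Atp6v1a, Atp6v1b2, Atp6v1c1, Atp6v1d, Atp6v1e1, Atp6v1f, Atp6v1g1, Atp6v1h) and 2 accessory subunits (Atp6ap1, Atp6ap2). They held 2866 of the 610301 regions in the tables, and 40 of 18524 gene names. A region within 2 kb of an annotated start is called a promoter region and any other a distal region.

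Lysosomes are the acid compartments in which macrophages break down what they take up, and osteoclasts secrete the same acid and proteases onto bone. The V-ATPase pumps protons across the lysosomal membrane: V1 hydrolyses ATP in the cytosol and V0 carries the protons. Tfeb and Tfe3 are transcription factors of the MiT family, which bind an E-box known as the CLEAR element at lysosomal genes. NCoR is a corepressor that works with the histone deacetylase HDAC3, p300 is an acetyltransferase whose targets include lysine 27 of histone H3 (H3K27ac, found at active enhancers and promoters), p65 is a subunit of NF-kB, Fosl2 belongs to AP-1, PU.1 defines the macrophage lineage, PGC1b is a coactivator and ERK1 is a kinase.

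The study asked how NCoR and HDAC3 take part in activation of macrophages through Toll-like receptor 4. All cells came from the bone marrow of C57BL/6 mice, 8 to 12 weeks old for the macrophages. Bone marrow-derived macrophages were starved of serum for 12 h and then given vehicle (Veh) or Kdo2 lipid A (KLA), a Toll-like receptor 4 agonist, the latter for 6 h. The descriptions of the p300 Veh libraries give 0 h of KLA, not 6 h of vehicle, so time in culture and KLA cannot be told apart for that protein. ChIP-seq for NCoR, HDAC3, p65, Fosl2, PU.1, PGC1b, ERK1 and p300 compared Veh with KLA in Wild type macrophages. PGC1b was also measured with DMSO and Veh, DMSO and KLA, and the ERK inhibitor ERKi with KLA, and NCoR with ERKi and KLA. H3K27ac was measured in NCoR flox/flox macrophages without Cre (WT) and with LysMCre (NKO), each with Veh or KLA. It was also measured in Wild type macrophages with DMSO and Veh, DMSO and KLA, or the HDAC3 inhibitor RGFP966 and KLA, and in PGC1b flox/flox macrophages without Cre (flox) and with LysMCre (flox-Cre), each with Veh or KLA. By the study's methods both inhibitors were added when serum starvation began, 12 h before KLA. Their effects before and after KLA cannot be told apart. ERK1 and p300 were measured in Wild type bone marrow cells grown into osteoclast precursors at day 0 and after 4 days of RANKL, the cytokine that drives osteoclast formation. LysMCre is active in myeloid cells, and the flox controls carry no Cre, so a deletion and the presence of Cre cannot be told apart. H3K27ac tags do not measure a deletion, and the 2 deletions were not checked here.

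Every group had 2 libraries, with 4.30 to 21.5 M mapped tags each, and nothing in the labels says whether these were separate cultures or mice, so p-values measure the spread between libraries. All tag values below are tags per 10 M mapped tags of their library. The share of tags inside the regions moved with treatment in several tables: it was 12.7% and 14.4% with Veh and 34.1% and 37.1% with KLA for p65, 23.7% and 22% against 35.5% and 35.3% for p300, 34.2% and 33.3% with KLA against 15.8% and 15% with ERKi and KLA for NCoR, and 3.08% and 3.16% at day 0 against 9.61% and 9.53% at day 4 for p300. The main values keep the library totals as the scale, and the same fit scaled by TMM, which centres the fold changes of most regions on 0, is given where it changes a result. It moved the median log2 fold change of all regions from 1.46 to 0.24 for p65 with KLA, 0.65 to 0.14 for p300 with KLA, -0.41 to 0.00 for PU.1, -1.20 to -0.04 for NCoR with ERKi and 1.84 to 0.22 for p300 at day 4. All 6 macrophage marker genes had a region in every table. Having a region does not single out macrophages. From 3 to 6 of 6 osteoclast markers had a region in each table. So did 3 of 3 T-cell markers in some, such as NCoR and p65 with Veh and KLA. Tags come from a population of cells, so a change in the share of cells that carry a mark and a change per cell cannot be told apart.

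A region was called higher or lower when edgeR's quasi-likelihood test gave a Benjamini-Hochberg adjusted p, over all regions tested in that table, under 0.05 and the fold change exceeded 2. An unadjusted p under 0.05 is no call, and such counts were set against all regions only where that is stated. Values are log2 fold changes of KLA over Veh unless another pair is named. Protein peaks were called in the libraries compared and merged across groups. A region near 0 tags in a group is therefore listed for its peak in another group. Its gain or loss and its lack of overlap follow in part from that choice. Shares of all regions are on library totals unless TMM or DESeq2 is named, so a TMM count without its own share has no such measure.

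The sequences of 4 distal regions that the KLA results turn on are shown first, read from the mm10 genome (+ strand) at the coordinates of the NCoR peaks. Capitals mark matches, on either strand, to the AP-1 letters TGANTCA, the PU.1 letters AGGAAGT and the CLEAR core TCACGTG, the last found in none of the 4. With KLA the first pair gained 7 or 8 of the 8 proteins, and the other pair lost 4 and 3 of them.
Npc2 8.2 kb downstream, chr12:84764845-84765047: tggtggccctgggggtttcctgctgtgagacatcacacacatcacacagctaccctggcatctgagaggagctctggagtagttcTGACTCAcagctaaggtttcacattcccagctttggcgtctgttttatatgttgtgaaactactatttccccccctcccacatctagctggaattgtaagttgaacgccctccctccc
Ctsc 6.4 kb upstream, chr7:88271592-88271795: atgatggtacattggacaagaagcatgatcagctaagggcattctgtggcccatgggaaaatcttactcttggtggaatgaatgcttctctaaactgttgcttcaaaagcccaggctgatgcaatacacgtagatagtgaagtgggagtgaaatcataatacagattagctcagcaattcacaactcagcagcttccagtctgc
Tfeb 19.3 kb downstream, chr17:47757153-47757374: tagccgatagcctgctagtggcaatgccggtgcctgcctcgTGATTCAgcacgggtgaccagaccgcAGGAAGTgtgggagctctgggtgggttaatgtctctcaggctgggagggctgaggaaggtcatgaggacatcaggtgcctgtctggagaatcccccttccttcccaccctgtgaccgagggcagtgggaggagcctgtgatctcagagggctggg
Ctsd 2.6 kb upstream, chr7:142390332-142390571: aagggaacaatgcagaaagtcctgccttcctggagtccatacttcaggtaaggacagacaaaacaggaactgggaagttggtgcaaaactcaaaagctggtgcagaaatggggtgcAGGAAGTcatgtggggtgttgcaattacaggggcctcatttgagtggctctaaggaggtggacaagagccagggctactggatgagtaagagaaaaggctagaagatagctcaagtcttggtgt
The Npc2 and Tfeb regions lie in introns of those genes and the Ctsc and Ctsd regions are intergenic. The Ctsc region held none of the motifs searched.

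The promoters of the lysosome genes were searched for the same CLEAR core in RefSeq sequences of build GRCm38.p6, from 250 bases before to 50 after each start. Of the 40 genes 32 were matched, and TCACGTG stood in the promoters of 10 of them (31.2%), against 1160 of all 27025 genes (4.29%). The wider E-box CACGTG was found in 11 of the 32 (34.4%) and in 8.09% of all genes. The 10 genes were Atp6v0b, Atp6v0d1, Atp6v0e, Atp6v1a, Ctsa, Ctsd, Gaa, Glb1, Lamp1 and Mcoln1, and 4 of the 11 V-ATPase genes that were matched are among them. Of the promoters with more than 1 match, 4 are shown, on the gene's strand, with each CACGTG and its flanking match in capitals.
Lamp1, chr8:13158911-13159210 (+): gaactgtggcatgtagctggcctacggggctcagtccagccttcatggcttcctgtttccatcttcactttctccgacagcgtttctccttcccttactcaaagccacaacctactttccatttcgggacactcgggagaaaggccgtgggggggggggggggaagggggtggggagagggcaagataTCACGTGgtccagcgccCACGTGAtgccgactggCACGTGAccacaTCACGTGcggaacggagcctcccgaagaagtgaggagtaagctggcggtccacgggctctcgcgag
Ctsa, second start, chr2:164833523-164833822 (+): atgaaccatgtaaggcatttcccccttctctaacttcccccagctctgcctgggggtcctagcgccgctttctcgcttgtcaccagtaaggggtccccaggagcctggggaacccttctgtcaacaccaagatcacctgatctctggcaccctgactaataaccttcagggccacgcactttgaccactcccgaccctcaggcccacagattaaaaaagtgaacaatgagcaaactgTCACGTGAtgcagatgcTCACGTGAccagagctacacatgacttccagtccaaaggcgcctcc
Mcoln1, chr8:3500269-3500568 (+): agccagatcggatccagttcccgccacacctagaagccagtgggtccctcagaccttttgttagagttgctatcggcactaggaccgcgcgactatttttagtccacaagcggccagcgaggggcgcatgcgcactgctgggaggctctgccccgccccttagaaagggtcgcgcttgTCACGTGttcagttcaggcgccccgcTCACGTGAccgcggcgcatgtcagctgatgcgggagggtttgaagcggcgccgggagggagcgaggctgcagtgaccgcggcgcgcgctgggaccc
Atp6v0b, chr4:117887280-117887579 (-): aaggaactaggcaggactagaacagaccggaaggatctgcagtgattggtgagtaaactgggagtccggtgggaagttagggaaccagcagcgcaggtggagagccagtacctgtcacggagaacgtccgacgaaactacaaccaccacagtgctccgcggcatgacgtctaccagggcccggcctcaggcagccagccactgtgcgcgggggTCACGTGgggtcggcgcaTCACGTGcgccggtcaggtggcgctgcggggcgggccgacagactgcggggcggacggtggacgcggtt
Lamp1, the main glycoprotein of the lysosomal membrane, held 4 of these E-boxes, the farthest beginning 62 bases before its start. In windows of 200 bases on the NCoR regions, TCACGTG stood in 12 of 270 regions of the 40 genes (4.44%) and in 2.34% of all NCoR regions. It stood in 5 of the 52 regions called lower with KLA (9.62%) and in 0 of the 46 called higher, against 2.38% and 1.28% of all NCoR regions called lower and higher. The AP-1 letters stood in 17.8% of the regions of the 40 genes and 20.9% of all, the PU.1 letters in 24.8% and 25.6%, and the NF-kB letters GGANTTTCC in 0.741% and 2.21%. Motifs were chosen after values had been seen, and a match is a description of letters, not of binding.

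Lysosome promoters carried much H3K27ac in resting macrophages. In the flox table, where every region is a window of 1000 bases, 31 of the 40 genes had a promoter window, and their median level with Veh was 277.5 tags per 10 M against 133.7 over 8368 genes. Of the 31 genes 27 lay above the median of all genes and 9 in the top 10%. In the DMSO table, from other libraries and with the same windows, the medians were 211.7 and 84.1, with 29 of 31 genes above the median of all and 11 in the top 10%.

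The order of the windows differed between the tables. In flox with Veh the highest was that of Hexa, a subunit of beta-hexosaminidase, followed by Atp6v0a1, Glb1 (beta-galactosidase), Ctsd, Ctsb and Cd68 (macrosialin), while with DMSO and Veh Atp6v0a1 stood first, Hexa second and Glb1 ninth. Hexa had 719 and 757 tags per 10 M in the flox Veh libraries and 721 and 680.4 in the flox KLA libraries, and Atp6v0a1 had 758 and 687 against 653 and 702. Neighbours in this order overlapped: Hexa with Atp6v0a1, and Glb1, Ctsd and Ctsb with each other. The lowest were Npc1, the membrane cholesterol transporter, Atp6ap1 and Neu1 (neuraminidase), with group means of 105, 94.7 and 89.2. Ctsz, a carboxypeptidase, was the gene whose promoter window stood highest with KLA, at 472 and 475 tags with Veh and 761 and 861 with KLA. The windows of Tfeb, Lipa (lysosomal acid lipase), Ctsa and Ctsd were among many that were lower in both KLA libraries than in both Veh libraries. Glb1, Cd68, Cd63, Gusb and Ctsl were others. The windows of Ctsz, Atp6v1d, Atp6v1b2, Tfe3, Ctsc and Atp6v1h were higher in both KLA libraries than in both Veh libraries. Of all flox regions, promoter and distal, 25.6% were called lower with KLA and 5.22% higher. The share of all promoter windows that moved without overlap was not counted, so the windows listed have no measure beside them.

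**Figure D1:**
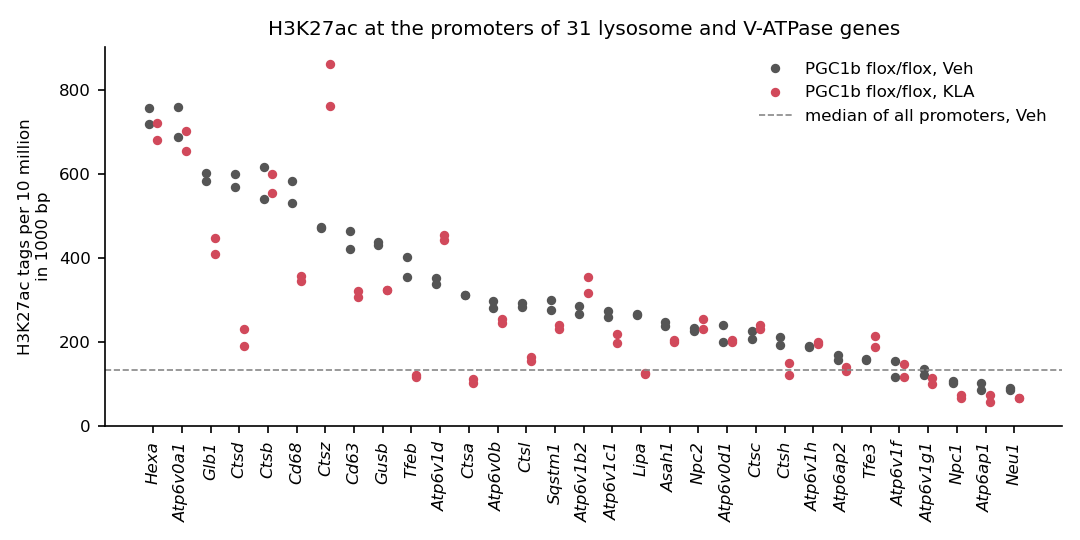
H3K27ac tags per 10 M in the 1000-base promoter window of each of 31 lysosome and V-ATPase genes (x axis, ordered by the Veh mean) in the 2 Veh and 2 KLA libraries of PGC1b flox/flox macrophages, 1 point a library. The dashed line is the median of all 8368 genes with Veh, and 27 of the 31 genes have a Veh mean above it.

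KLA moved NCoR at the lysosome loci in both directions. Of 270 NCoR regions 46 were higher and 52 lower (23.4% and 16.7% of all 55045 regions were), and the median log2 fold change was -0.24 against 0.10 over all. Scaled by TMM the counts were 50 and 57. At promoters 5 of 70 regions were higher and 15 lower (14.3% and 14.1% of all promoter regions), with a median of -0.46 against -0.09. The 200 distal regions held 41 higher and 37 lower (25.6% and 17.4% of all distal regions). By group of genes, membrane protein loci had 12 higher and 2 lower of 33, the regulators 0 higher and 5 lower of 22, proteases 20 and 21 of 93, other lumenal proteins 5 and 9 of 53, V0 3 and 6 of 23, and V1 5 and 7 of 42. The differences between these groups of genes were not tested.

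HDAC3 was higher at 46 and lower at 18 of 231 regions (27.5% and 11.3% of all), and its median of 0.03 turned to -0.24 under TMM, with 39 higher and 31 lower. Of the 27 HDAC3 regions at membrane protein loci 8 were higher and none lower. p65 was higher at 107 and lower at 21 of 238 regions (57% and 5.43% of all), with a median of 0.91 that became -0.31 under TMM, where 44 were higher and 64 lower. Of the distal regions 94 of 178 were higher and 9 lower (63.8% and 3.69% of all distal regions), and of the promoter regions 13 of 60 were higher and 12 lower (29.2% and 12.5% of all promoter regions). p300 was higher at 73 and lower at 65 of 315 regions (42.1% and 12.9% of all), with a median of 0.00 against 0.65 over all, and under TMM at 47 and 109 with a median of -0.52. Only 3 of 81 p300 promoter regions were higher and 19 were lower (20.9% and 17.5% of all promoter regions).

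PU.1 was called higher at 6 and lower at 32 of 226 regions (4.53% and 21.7% of all), and its median of -0.27 turned to 0.15 under TMM, with 16 higher and 11 lower. PGC1b was higher at 28 and lower at 3 of 187 (16.4% and 6.35% of all), and at 28 and 9 under TMM. In the second PGC1b experiment, with DMSO beside Veh and KLA, it was higher at 38 and lower at 3 of 228 (16.4% and 1.23% of all), and at 16 and 6 under TMM. Fosl2 was higher at 8 and lower at 5 of 154 (11.4% and 4.19% of all), and at 17 and 21 under TMM. ERK1 was higher at 9 and lower at 3 of 154 (10.3% and 2.53% of all). Under TMM the ERK1 counts were 4 and 4 (8.11% and 3.93% of all under TMM), and its median of 0.17 turned to -0.04. The Fosl2 and ERK1 counts rested on single libraries: without either Fosl2 Veh library 0 regions were called, without KLA replicate 1 or 2 41 and 55, and the ERK1 count of 12 became 0 without KLA replicate 1 and 3 without replicate 2. Without a single library the count of 64 for HDAC3 fell to 18 (Veh replicate 1) or 20 (Veh replicate 2), that of 98 for NCoR to 51 or 42 (KLA replicates 1 and 2), that of 128 for p65 to 80 or 56 (KLA replicates 1 and 2), that of 31 for PGC1b to 10 or 12 (Veh replicates 1 and 2) or rose to 55 (KLA replicate 2), and that of 138 for p300 fell to 91 (KLA replicate 2). That of 41 for PGC1b with DMSO fell to 17 and 24 without Veh replicates 1 and 2 and to 23 without KLA replicate 1.

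**Figure D2:**
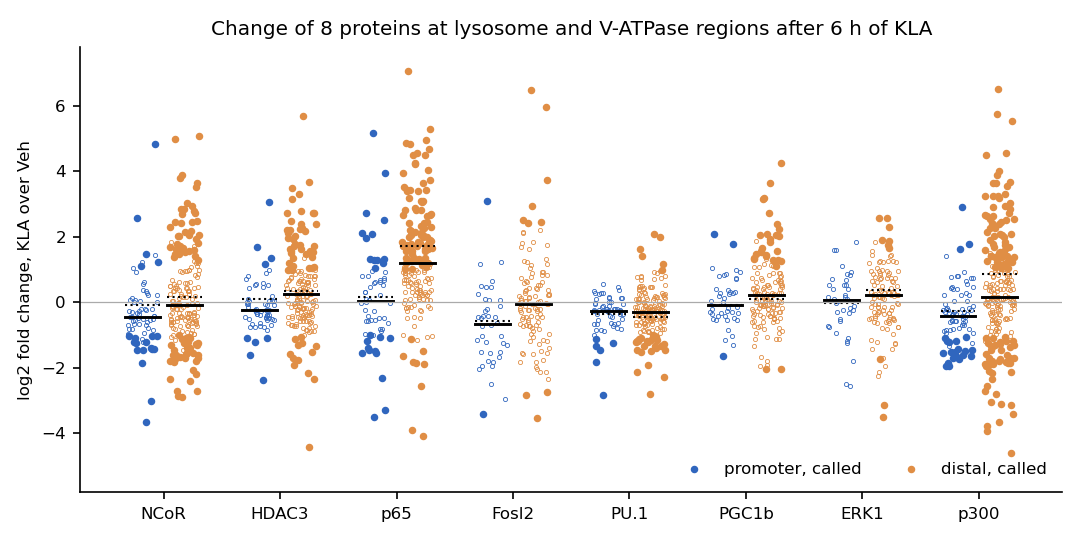
Log2 fold change of KLA over Veh (y axis) at each promoter (blue) and distal (orange) region of the 40 genes for the 8 proteins, 1 point a region, filled where called. Solid bars are medians of all tested regions of the 40 genes of that kind and dotted bars medians of all regions of that kind. Regions with a group at 0 tags (14 in all) are left out of the points but not of the medians. The p65 and p300 distal regions spread furthest upward, and the promoter bars of NCoR, Fosl2 and p300 lie below 0.

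The regions of the 8 KLA tables fell on 423 sites when centres within 500 bases were joined, and 265 sites had a call in at least 1 protein. A peak of all 8 proteins stood at 75 sites and a peak of 1 protein alone at 113. At 44 sites, of 18 genes, 3 or more proteins were higher, and at 16 sites, of 12 genes, 3 or more were lower. No site of the 16 had a gain of any protein, and of the 44 only the Atp6v0b site 1.4 kb downstream had a loss, of PU.1. Under TMM the 2 numbers were 35 and 31. Sites were drawn at the 40 genes alone, so neither number has a share over all genes beside it. Among all regions, 57% of p65, 42.1% of p300, 27.5% of HDAC3 and 23.4% of NCoR were called higher. In the same order 5.43%, 12.9%, 11.3% and 16.7% were called lower. Of the 44, 4 were promoter regions (Atp6v0b, Atp6v0e, Lamp2 and the internal start of Tfeb), and of the 16, 3 were (Ctsl, Hexa and the upstream start of Tfeb).

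Ctsc, cathepsin C, the protease that activates the serine proteases of immune granules, held 17 of the 44 gained sites and none of the 16 lost ones, over 49 sites in all. At 6.4 kb upstream of its start all 8 proteins were called higher. NCoR had 53.8 and 55.3 tags with Veh and 233 and 221 with KLA (log2 change 2.05 with an SE of 0.22, edgeR adjusted p = 1.1e-04). p65 had 39.4 and 32.6 tags with Veh and 384 and 375 with KLA (log2 change 3.39 with an SE of 0.23, edgeR adjusted p = 1.2e-06). In neither did the groups overlap, and the p65 gain was the largest of the 8.

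PU.1 at this site had 54.3 and 53.5 tags with Veh and 181 and 157 with KLA (log2 change 1.65 with an SE of 0.14, edgeR adjusted p = 1.8e-22). p300 had 74 and 68.3 tags with Veh and 278 and 295 with KLA (log2 change 2.01 with an SE of 0.16, edgeR adjusted p = 3.4e-08). HDAC3 changed by 1.78, Fosl2 by 2.42, PGC1b by 1.67 and ERK1 by 1.68. The ERK1 call was lost under TMM, and no group of the 8 proteins overlapped with the other.

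The 49 Ctsc sites lay between 223.7 kb upstream and 68.1 kb downstream of its start. The site 77.7 kb upstream was higher in 7 proteins and that 149.4 kb upstream, in an intron of Grm5, in 7 as well. p65 at the latter had 15.8 and 8.39 tags with Veh and 244 and 336 with KLA (log2 change 4.56 with an SE of 0.33, edgeR adjusted p = 1.8e-06). At 33.7 kb upstream p300 had 18.8 and 6.57 tags with Veh and 206 and 179 with KLA (log2 change 3.90 with an SE of 0.30, edgeR adjusted p = 1.7e-08), and NCoR had 3.58 and 0 tags with Veh and 59.1 and 60.2 with KLA. Sites nearly empty with Veh included that 62.9 kb upstream, where HDAC3 had 3.64 and 0 tags with Veh and 61.5 and 119 with KLA and Fosl2 2.82 and 0 tags with Veh and 90.8 and 162 with KLA. The Ctsc promoter itself was not among the sites gained in 3 or more proteins.

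Npc2, the lumenal carrier that hands cholesterol to Npc1, had the gain shared by the most proteins outside Ctsc. At its intronic site 8.2 kb downstream 7 proteins were higher and PU.1 had no peak. NCoR had 7.17 and 12.9 tags with Veh and 109 and 127 with KLA (log2 change 3.54 with an SE of 0.37, edgeR adjusted p = 1.1e-04). p65 had 16.6 and 1.86 tags with Veh and 183 and 182 with KLA, with no overlap in either protein. The other changes were 3.31 for HDAC3, 3.75 for Fosl2, 3.16 for PGC1b, 2.31 for ERK1 and 2.52 for p300.

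Ctsb, cathepsin B, lost proteins at a pair of sites 19.2 and 18.2 kb upstream. At the first, 6 proteins were lower. NCoR had 152 and 194 tags with Veh and 27.5 and 20.8 with KLA (log2 change -2.84 with an SE of 0.29, edgeR adjusted p = 8.6e-05). PU.1 had 190.3 and 200.4 tags with Veh and 49.7 and 53.5 with KLA (log2 change -1.92 with an SE of 0.13, edgeR adjusted p = 2.2e-28). The groups did not overlap. HDAC3 changed by -2.33, p65 by -1.82, Fosl2 by -2.84 and p300 by -2.34. PGC1b and ERK1 had values of -1.04 (edgeR adjusted p = 0.086) and -0.62 (edgeR adjusted p = 0.42) and were not called. At the same gene a site 26.3 kb downstream, in an intron of Fdft1, was higher in 6 proteins, with 14.9 and 10.3 tags with Veh and 139 and 135 with KLA for p65 (log2 change 3.43 with an SE of 0.33, edgeR adjusted p = 1.0e-05).

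**Figure D3:**
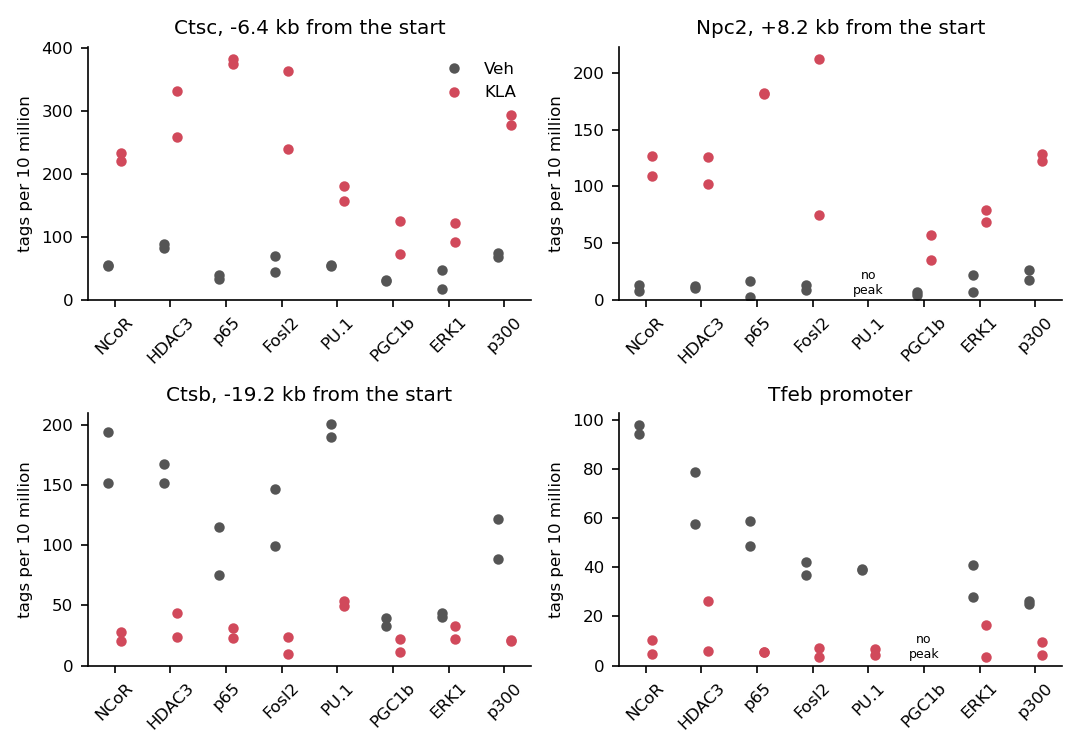
Tags per 10 M (y axis) of 8 proteins in the 2 Veh (grey) and 2 KLA (red) libraries at 4 sites, 1 point a library. All 8 proteins lie higher with KLA at the Ctsc site, and 6 of 8 were called lower at the Ctsb site.

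Ctsd, cathepsin D, an aspartic protease, lost NCoR at several regions. At 10.3 kb upstream NCoR had 412 and 463 tags with Veh and 151 and 136 with KLA (log2 change -1.60 with an SE of 0.18, edgeR adjusted p = 1.4e-04). At 2.6 kb upstream it had 173 and 200.1 tags with Veh and 63.2 and 60.9 with KLA, HDAC3 had 215 and 207 tags with Veh and 65.6 and 65 with KLA and PU.1 had 292 and 291 tags with Veh and 122 and 122 with KLA. NCoR, HDAC3 and PU.1 were called lower there, PU.1 not under TMM, while p65 and p300 had values of 0.07 and 0.10 and were not called. Under TMM p65 was called lower there, with -1.15. The Ctsd promoter lost NCoR too, with 182 and 254 tags with Veh and 85.9 and 74 with KLA (log2 change -1.45 with an SE of 0.23, edgeR adjusted p = 8.8e-04).

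Ctsa, which protects other hydrolases as well as cutting peptides, lost p300 across its gene body. At 3.8 kb downstream p300 had 70.2 and 97.9 tags with Veh and 8.18 and 4.86 with KLA (log2 change -3.66 with an SE of 0.37, edgeR adjusted p = 3.8e-07), and 4 further regions between 2.0 and 5.4 kb downstream fell by 3.04 to 3.79 on the log2 scale. p65 at 3.6 kb downstream had 24.5 and 28.9 tags with Veh and 0 and 3.42 with KLA, PGC1b changed by -2.02 at 3.4 kb and ERK1 by -3.14 at 2.7 kb. NCoR and HDAC3 had no region at this gene. At Ctsh, cathepsin H, the intronic region 13.3 kb downstream was lower in NCoR, HDAC3, PU.1 and ERK1, with log2 changes of -1.67, -1.51, -1.34 and -1.72. The ERK1 call was lost in each fit with a library left out and the PU.1 call under TMM.

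Among the other lumenal enzymes, the Hexa promoter was lower in 3 proteins. p300 there had 154 and 171 tags with Veh and 54.7 and 63.2 with KLA (log2 change -1.46 with an SE of 0.19, edgeR adjusted p = 6.0e-06), and PU.1 had 157 and 136 tags with Veh and 39.3 and 43.3 with KLA (log2 change -1.83 with an SE of 0.15, edgeR adjusted p = 2.3e-22). HDAC3 changed by -1.61, and none of the 3 overlapped between Veh and KLA. Neu1 had the opposite pattern at a site 9.0 kb downstream, higher in NCoR, HDAC3, p65, PGC1b and p300, the last not under TMM. Lipa was lower in NCoR, PU.1 and p300 at an intronic site 8.0 kb downstream, PU.1 not under TMM.

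Lamp2, a membrane glycoprotein needed for autophagy, gained proteins at several regions. NCoR at 5.8 kb upstream of Lamp2 had 7.17 and 17.7 tags with Veh and 105 and 98.9 with KLA (log2 change 3.02 with an SE of 0.40, edgeR adjusted p = 3.2e-04). At 4.0 kb downstream, in an intron, NCoR, HDAC3, p65, ERK1 and p300 were higher, and ERK1 had 0 and 0 tags with Veh and 29.5 and 34 with KLA. A site 9.8 kb upstream was higher in 5 proteins as well, and under TMM the p65 calls at both sites and the p300 call at the latter were lost. At Npc1 p300 had 0 and 0 tags with Veh and 52.7 and 44.9 with KLA at a region 16.6 kb upstream, in the 3′ UTR of Ankrd29. Regions with 0 tags with Veh were listed for their KLA peaks, so their gains are no separate support.

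Tfeb, the regulator of lysosomal genes, moved in opposite directions at its upstream and its internal promoter. At the upstream promoter (chr17:47738027-47738282) NCoR had 98 and 94.2 tags with Veh and 10.5 and 4.84 with KLA (log2 change -3.65 with an SE of 0.42, edgeR adjusted p = 1.5e-04). p65 had 58.7 and 48.5 tags with Veh and 5.34 and 5.47 with KLA (log2 change -3.29 with an SE of 0.48, edgeR adjusted p = 1.7e-04). The groups did not overlap, and HDAC3, PU.1 and p300 were lower there, with -2.36, -2.81 and -1.85.

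At a promoter region 1.1 kb upstream of the internal start (chr17:47784504-47784725, in an intron of the longer transcript) p65 had 23.6 and 23.3 tags with Veh and 158 and 155 with KLA (log2 change 2.73 with an SE of 0.28, edgeR adjusted p = 1.5e-05). p300 had 30.1 and 36.8 tags with Veh and 119 and 111 with KLA (log2 change 1.78 with an SE of 0.23, edgeR adjusted p = 6.5e-06). Both rose without overlap. HDAC3 was called higher too, with 1.19, though not under TMM, and PGC1b with DMSO had 2.15. NCoR there had 74.1 and 36.5 tags with Veh and 64.8 and 98.9 with KLA and was not called.

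Intronic sites 19.3 and 22 kb downstream of the upstream start followed the upstream promoter, with 4 and 5 proteins lower, PU.1 not under TMM. NCoR at the first had 189 and 218 tags with Veh and 41.3 and 35.3 with KLA (log2 change -2.41 with an SE of 0.24, edgeR adjusted p = 8.4e-05). The promoters of the other regulators moved less. NCoR at Tfe3 had 104 and 121 tags with Veh and 61.6 and 67.1 with KLA and was not called. Sqstm1, the autophagy receptor p62, was called higher in p65 alone, with 38.5 and 32.6 tags with Veh and 74.8 and 88.3 with KLA. Its log2 change of 1.19 turned to -0.04 under TMM.

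At the V-ATPase genes some subunits had gains and losses both. Atp6v0b, a proteolipid subunit of V0, gained 5 proteins in an intronic promoter region 1.4 kb downstream, where PU.1 was lower. NCoR there had 0 and 3.53 tags with Veh and 59.9 and 49.1 with KLA (log2 change 4.85 with an SE of 0.72, edgeR adjusted p = 5.5e-04). Atp6v1b2, the B subunit of V1 in macrophages and osteoclasts, gained 6 proteins 50.8 kb upstream, in the 3′ UTR of Slc18a1. p300 there had 35.7 and 34.8 tags with Veh and 223 and 218 with KLA (log2 change 2.64 with an SE of 0.19, edgeR adjusted p = 8.6e-09), and PU.1 had 54.3 and 60.4 tags with Veh and 168 and 137 with KLA (log2 change 1.42 with an SE of 0.14, edgeR adjusted p = 1.2e-17). None of these groups overlapped. At 95.4 kb upstream of Atp6v1b2, NCoR, HDAC3, Fosl2 and PU.1 were lower.

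Atp6v1c1, the C subunit of V1, lost NCoR, HDAC3, PU.1 and p300 at 11.4 kb upstream, where NCoR had 74.1 and 77.7 tags with Veh and 10.5 and 12.5 with KLA (log2 change -2.71 with an SE of 0.38, edgeR adjusted p = 4.1e-04). At 16.8 kb upstream of the same gene NCoR, HDAC3, p65 and p300 were higher, p65 not under TMM. Atp6v0a1, the large membrane subunit, lost PU.1 at 14.6 kb upstream, with 303 and 336 tags with Veh and 127 and 102 with KLA (log2 change -1.48 with an SE of 0.10, edgeR adjusted p = 6.1e-29), and NCoR at 1.2 kb upstream, with -1.20. Atp6v0e was called lower in Fosl2 at 8.1 kb upstream, with 14.1 and 13.6 tags with Veh and 0 and 0 with KLA.

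For 12 genes the promoter region with the most tags was read in all 14 comparisons of KLA with Veh, H3K27ac included. It was picked anew in each table, so its position could differ between comparisons. Atp6v0d1, Atp6v1b2 and Lamp1 had a region in 11, 12 and 9 of them and were called in none, with log2 fold changes from -1.88 to 0.81, -0.56 to 0.31 and -1.83 to 0.85. Under TMM Lamp1 and Atp6v0d1 were called lower in Fosl2 (-1.75 and -1.30), Atp6v0d1 in p300 (-1.46) and Atp6v1b2 in p65 (-1.48). NCoR at the Lamp1 promoter had 319 and 320.1 tags with Veh and 347 and 309 with KLA, and at Atp6v1b2 62.1 and 51.8 tags with Veh and 60.7 and 60.2 with KLA, with overlapping groups in both. Atp6v1h and Ctsb were lower in p300 alone on library totals, and under TMM also in NCoR (-1.21) and p65 (-2.04). p300 at Ctsb had 97.8 and 104 tags with Veh and 50.6 and 38.4 with KLA (log2 change -1.18 with an SE of 0.23, edgeR adjusted p = 3.4e-04). Cd63, a tetraspanin of late endosomes, was lower in 2 of 14, Npc1 in 2 of 10 and Ctsd in 4 of 14, and under TMM in 3, 1 and 6. Ctss, Sqstm1 and Tfe3 were higher in 1 each, Ctss in PGC1b with DMSO, Sqstm1 in p65 and Tfe3 in H3K27ac of WT. Tfeb was higher in 4 and lower in 4 of 14, the former at the internal start and the latter in H3K27ac at the upstream promoter, and under TMM in 4 and 3. The calls of Ctss, Sqstm1 and Tfe3 were lost under TMM.

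The most tagged distal region of each gene was also picked anew in each table, so a tally can join different positions. On library totals, it was called in at least 1 of these comparisons for most genes. It was lower for Ctsh in 5, Ctsd in 4, and Ctsa, Lamp2, Atp6v0a1 and Npc2 in 3. It was higher for Ctsc and Atp6v1e1 in 4 and for Atp6v0d1 and Neu1 in 3. For Atp6ap1, Atp6v0c, Atp6v1b2, Atp6v1c1 and Tfe3 it was called in none. The same was not counted for all genes, and a gene had up to 14 comparisons in which to be called. Among all regions 57% were called higher in p65 and 42.1% in p300, so these tallies have no measure beside them.

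H3K27ac after KLA was read in 5 pairs of groups, each with its own Veh libraries. In WT macrophages 8 of 96 tested regions were higher and 2 lower (6.49% and 3.72% of all), with a median of 0.06 against 0.13 over all that turned to -0.09 under TMM. In NKO 3 were higher and 8 lower (2.75% and 7.96% of all), with a median of -0.38 against -0.20, and under TMM 5 and 5. In Wild type with DMSO 6 of 114 were higher and 32 lower (6.73% and 28.1% of all), with a median of -0.56 against -0.42, and under TMM 15 and 18. In flox macrophages 6 of 112 were higher and 15 lower (5.22% and 25.6% of all), and the median of -0.26 turned to 0.17 under TMM, with 17 higher and 8 lower. In flox-Cre 2 were higher and 48 lower (4.18% and 32.5% of all), with a median of -0.82 against -0.62. The TMM counts in flox-Cre were 10 and 22 (10.8% and 14.3% of all under TMM). Regions in the DMSO and flox tables are windows of 1000 bases, some of which overlap and share tags, such as 3 at Lipa and 2 at Npc1.

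Ctsc gained H3K27ac at some of the sites where it gained the proteins. At 149.4 kb upstream the window had 25.7 and 23.5 tags with DMSO and Veh, 209 and 167 with DMSO and KLA, and 228 and 179 with RGFP966 and KLA (log2 change 2.93 with an SE of 0.27, edgeR adjusted p = 5.9e-26 for KLA over Veh). In the flox table it had 6.73 and 13.9 tags in flox with Veh, 140.2 and 156 in flox with KLA, 2.49 and 5.97 in flox-Cre with Veh and 106 and 108 in flox-Cre with KLA, and KLA raised it in both genotypes, by 3.88 and 4.65. At 6.4 kb upstream the window had 11.6 and 5.23 tags with DMSO and Veh, 69.9 and 40.4 with DMSO and KLA, and 80.3 and 71.8 with RGFP966 and KLA (log2 change 2.71 with an SE of 0.36, edgeR adjusted p = 7.6e-13). At that site the flox value was 1.25 and called, the flox-Cre value 0.47 and called under TMM alone (1.09), and the WT value -0.32 and not called. In WT the site 149.4 kb upstream was called, with 2.31, and that 77.7 kb upstream had -0.86 and was not.

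Ctsz and Npc2 gained the mark in WT. The Ctsz region 2.7 kb downstream had WT values of 28.4 and 30.05 tags for Veh and 99.98 and 105 for KLA, and NKO values of 74.5 and 54.6 for Veh and 96.1 and 104 for KLA (log2 change 1.80 with an SE of 0.23, edgeR adjusted p = 8.1e-08 in WT). The NKO Veh libraries stood above the WT Veh libraries at this region, by 1.13, the only region of the 40 genes called between genotypes with Veh. That call was lost under TMM and held in 1 of 4 fits with a library left out. Npc2 at 11.6 kb downstream had WT values of 24.6 and 29 tags for Veh and 72.9 and 68.2 for KLA, and NKO values of 56.8 and 29 for Veh and 65.3 and 90.3 for KLA (log2 change 1.39 with an SE of 0.28, edgeR adjusted p = 3.2e-04 in WT).

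The largest loss in WT was near Lamp1. At 3.7 kb upstream H3K27ac had WT values of 102 and 114 tags for Veh and 19.5 and 15.9 for KLA, and NKO values of 128 and 121 for Veh and 37.2 and 20.8 for KLA (log2 change -2.60 with an SE of 0.27, edgeR adjusted p = 3.1e-10 in WT). It fell in NKO as well, by 2.07 on the log2 scale. The Ctsa promoter was the other region called lower in WT, with WT values of 23.3 and 21.9 tags for Veh and 7.55 and 4.14 for KLA, and NKO values of 26.5 and 16.3 for Veh and 8.5 and 12.5 for KLA, and that call held in 1 of 4 fits with a library left out.

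With DMSO, Lipa and Ctsb lost most. Lipa at 8.0 kb downstream had 588 and 591 tags with DMSO and Veh, 124 and 92.6 with DMSO and KLA, and 299 and 211 with RGFP966 and KLA (log2 change -2.43 with an SE of 0.21, edgeR adjusted p = 2.3e-29 for KLA). Ctsb at 19.3 kb upstream had 476 and 435 tags with DMSO and Veh, 100.4 and 90.04 with DMSO and KLA, and 219 and 179.5 with RGFP966 and KLA (log2 change -2.25 with an SE of 0.21, edgeR adjusted p = 1.9e-24 for KLA). KLA libraries lay below all Veh libraries in both, and the RGFP966 libraries lay between.

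The upstream Tfeb promoter had 426 and 386 tags with DMSO and Veh, 121 and 100.1 with DMSO and KLA, and 136 and 121 with RGFP966 and KLA (log2 change -1.87 with an SE of 0.21, edgeR adjusted p = 1.5e-17 for KLA), and Ctsd 920 bases downstream of its start had 701 and 699 tags with DMSO and Veh, 229 and 188 with DMSO and KLA, and 271 and 207 with RGFP966 and KLA (log2 change -1.74 with an SE of 0.20, edgeR adjusted p = 2.0e-17). RGFP966 moved them by 0.21 and 0.19, and neither was called. Both promoters were lower in flox macrophages too, Tfeb with -1.67 and Ctsd with -1.47. In WT, with narrower regions at other positions, the Tfeb promoter had -0.32 and a Ctsd region 147 bases upstream of its start 0.51, and neither was called.

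At the sites that lost 3 or more proteins, 8 H3K27ac windows of the DMSO table had a median of -1.61 with 6 called lower and 0 above 0. The same in flox gave -1.10 with 4 lower and in flox-Cre -2.00 with 7 lower. In WT, with narrower regions, 6 regions had a median of -0.45 and none was called. At the sites that gained 3 or more proteins, 9 windows of the DMSO table had a median of 0.82 with 3 called higher, 8 of flox 0.77 with 2, 8 of flox-Cre 0.49 with 1 called higher and 1 lower, and 10 regions of WT 0.56 with 2. The lower one was at the internal Tfeb start, where H3K27ac had values below 0 in all 4 sets, -0.86 with DMSO, -0.54 in flox and -0.72 in WT, which were not called, and the flox-Cre call was lost under TMM. Under TMM 4, 2, 5 and 0 windows were lower at the lost sites in DMSO, flox, flox-Cre and WT, and 6, 6, 6 and 1 were higher at the gained sites, with none lower. These are counts over few windows, without a test.

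RGFP966, added before KLA, raised H3K27ac at 20 of 114 regions and lowered it at 2, against DMSO with KLA (26.9% and 9.53% of all). All 20 were among the 70 distal regions, whose median was 0.48 against 0.85 over all distal regions, and both losses among the 44 promoters, with a median of -0.43 against -0.57. The median over the 114 regions, 0.10, turned to -0.25 under TMM, with 8 higher and 13 lower. This comparison and that of KLA with DMSO share the DMSO and KLA libraries, so their values are not independent. The summed tags at the 6 macrophage marker genes were 2566 and 3141 with DMSO and KLA and 1899 and 2144 with RGFP966 and KLA, and those at 4 osteoclast markers 520 and 635 against 778 and 924. Their part in the result was not tested.

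Ctsl, a cysteine protease, led the gains at 27.7 kb upstream, with 145 and 122 tags with DMSO and Veh, 63.5 and 63.1 with DMSO and KLA, and 185 and 181 with RGFP966 and KLA (log2 change 1.53 with an SE of 0.23, edgeR adjusted p = 8.5e-10 for RGFP966 over DMSO). Atp6v0a1 at 6.2 kb upstream had 256 and 256 tags with DMSO and Veh, 86.8 and 87.5 with DMSO and KLA, and 245 and 201 with RGFP966 and KLA (log2 change 1.35 with an SE of 0.22, edgeR adjusted p = 7.4e-09). Both kept their call under TMM. Lipa at 8.0 kb downstream rose by 1.22 and Npc2 at 24.8 kb downstream by 1.20, and neither was called under TMM. The promoters that fell were Atp6v0b, with 204 and 193 tags with DMSO and Veh, 245 and 190.2 with DMSO and KLA, and 101 and 87.4 with RGFP966 and KLA (log2 change -1.21 with an SE of 0.22, edgeR adjusted p = 1.9e-07), and Npc2, with 155 and 151 tags with DMSO and Veh, 198 and 152 with DMSO and KLA, and 86.2 and 68.4 with RGFP966 and KLA (log2 change -1.18 with an SE of 0.23, edgeR adjusted p = 1.0e-06). At the 8 windows over sites that lost 3 or more proteins with KLA, 7 values lay above 0, with a median of 1.01 and 5 called higher, and under TMM the median was 0.67 with 1 called, at Ctsh (1.37).

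Between NKO and WT most lysosome regions had no call. With Veh 1 of 96 regions was higher in NKO than in WT and 0 lower (0.973% and 0.027% of all), and with KLA 0 were higher and 2 lower (0.4% and 0.389% of all). The response to KLA differed between the genotypes at 0 regions upward and 2 downward by edgeR (0.027% and 0.67% of all), and 24 regions had an unadjusted p under 0.05. Under TMM and by DESeq2 0 differed. The median difference of responses was -0.37 against -0.34 over all regions.

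The 2 regions were Ctsd 2.3 kb upstream, with WT values of 66.2 and 54 tags for Veh and 50.9 and 42.7 for KLA, and NKO values of 87 and 65.6 for Veh and 25 and 14.6 for KLA (log2 change -1.56 with an SE of 0.40, edgeR adjusted p = 0.04 for the difference of responses), and Tfeb 18.9 kb upstream of its internal start, with WT values of 59.3 and 62.1 tags for Veh and 70.4 and 95.1 for KLA, and NKO values of 111 and 92.9 for Veh and 46.2 and 70.1 for KLA (log2 change -1.26 with an SE of 0.32, edgeR adjusted p = 0.037). At Ctsd the WT libraries were not called between KLA and Veh, while both NKO KLA libraries lay below the other 6. The Ctsd call held in 2 and the Tfeb call in 3 of 8 fits with a library left out. The Ctsz promoter region 573 bases upstream was lower in NKO than WT with KLA, at 36.6 and 20.8 against 62.9 and 65.5 tags per 10 M, a call lost under TMM and in each fit with a library left out.

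With LysMCre in PGC1b flox/flox macrophages, the response of H3K27ac to KLA was more negative at 19 of 112 regions and more positive at 0 (4.6% and 0.77% of all). The median difference was -0.61 against -0.18 over all regions, and 4 of the 112 values lay above 0. Under TMM and by DESeq2 the count was 10, all more negative (2.31% of all under TMM and 1.9% by DESeq2). All groups of genes with more than 6 regions held some of the 19: 5 of 44 protease regions, 3 of 22 of other lumenal proteins, 4 of 12 of membrane proteins, 4 of 10 of regulators and 3 of 16 of V1. V0 had 0 of 6. With Veh 0 regions differed between the genotypes by edgeR (0.107% higher and 0.29% lower over all), 14 had an unadjusted p under 0.05, and DESeq2 called 0. With KLA 20 were lower and 0 higher in flox-Cre (6.81% and 0.702% of all), and 4 were lower under TMM (1.08% of all under TMM).

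Ctsb 8.4 kb downstream, in its intron, had 504 and 499 tags in flox with Veh, 769 and 768 in flox with KLA, 623 and 627 in flox-Cre with Veh and 325 and 349.7 in flox-Cre with KLA (log2 change -1.50 with an SE of 0.10, edgeR adjusted p = 3.7e-42 for the difference of responses). KLA libraries stood above Veh in flox and below Veh in flox-Cre. Tfeb 16.9 kb upstream of its internal start had 664 and 662 tags in flox with Veh, 576 and 567 in flox with KLA, 701 and 689.8 in flox-Cre with Veh and 255 and 229 in flox-Cre with KLA (log2 change -1.31 with an SE of 0.11, edgeR adjusted p = 8.6e-31). Here the flox-Cre KLA libraries lay far below the other 6.

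Npc1 12.2 kb downstream had 516 and 519.6 tags in flox with Veh, 372 and 424 in flox with KLA, 534 and 512 in flox-Cre with Veh and 132 and 156 in flox-Cre with KLA (log2 change -1.48 with an SE of 0.12, edgeR adjusted p = 2.4e-28), and an overlapping window 11.8 kb downstream differed by -1.35. Ctsd 5.5 kb upstream had 476 and 491 tags in flox with Veh, 381 and 319 in flox with KLA, 562 and 493 in flox-Cre with Veh and 174 and 155 in flox-Cre with KLA (log2 change -1.22 with an SE of 0.12, edgeR adjusted p = 1.4e-19). Both sets of flox-Cre KLA libraries were the lowest. Ctsd 2.6 and 6.6 kb upstream differed by -1.21 and -1.03, Npc2 20.9 kb downstream by -1.06, Atp6v1a, the catalytic A subunit, 2.5 kb downstream by -1.14 and the Cd68 promoter by -1.05. Those of Npc2, Atp6v1a, Cd68 and Ctsd at 6.6 kb were not called under TMM.

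At the upstream Tfeb promoter the difference of responses was -1.29, from 403 and 354 tags in flox with Veh, 121 and 118 in flox with KLA, 335 and 360.2 in flox-Cre with Veh and 47.7 and 42.3 in flox-Cre with KLA. On the scale of library totals, membrane protein loci were lower with KLA at 11 of 12 regions in flox-Cre and at 1 of 12 in flox. Regulators were lower at 7 and 3 of 10, and of all regions 32.5% and 25.6% were. Under TMM the counts were 5 and 1 and 4 and 2, with 14.3% of all regions lower in flox-Cre. Some of these windows overlap and share tags, such as those at Npc1, and the groups of genes were not tested. The summed tags at the 6 macrophage marker genes moved with this contrast: 2428 to 2442 in flox with Veh, 2665 to 2754 with KLA, 2281 to 2297 in flox-Cre with Veh, and 1626 to 1632 with KLA. The share of tags in regions moved too, from 29.9% and 30.1% in flox with KLA to 22.4% and 22% in flox-Cre with KLA. Their part in the result was not tested.

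**Figure D4:**
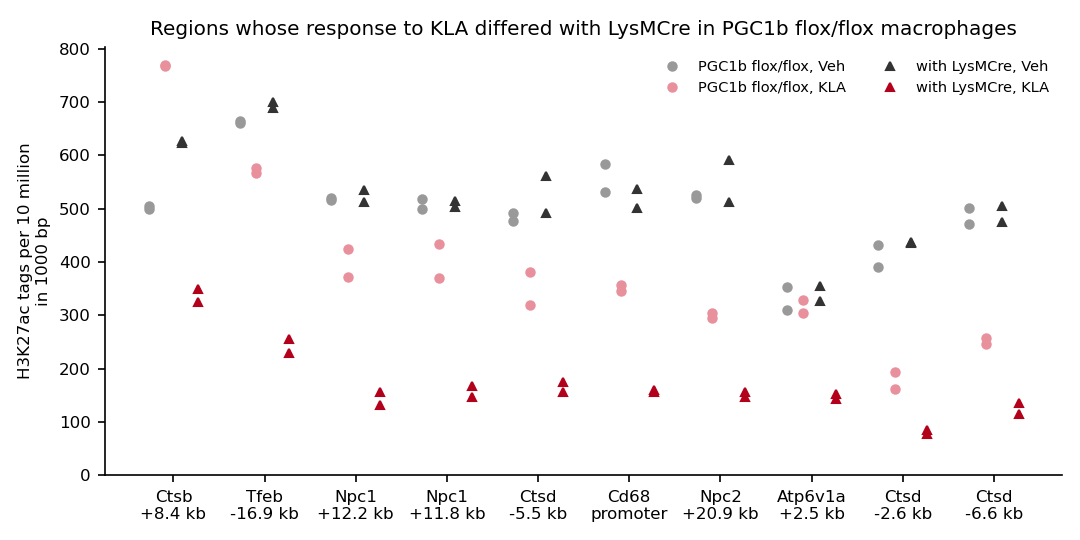
H3K27ac tags per 10 M in 1000-base windows (y axis) at the 10 windows with the lowest p for a different KLA response, in PGC1b flox/flox macrophages without (circles) and with (triangles) LysMCre, 1 point a library. The dark red triangles, flox-Cre with KLA, are the lowest 2 points in all 10 windows.

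NCoR was lower with ERKi over the whole table on the scale of library totals. With ERKi and KLA against KLA alone, 159 of 278 regions were lower and 0 higher (48.6% and 0.634% of all), with a median of -1.25 against -1.20 over all regions. Under TMM 9 were higher and 7 lower, and the count of 159 became 80 or 84 without KLA replicate 1 or 2. The ERKi libraries carry another date in their labels than the KLA libraries and have no DMSO control, so the inhibitor, its solvent and the date cannot be told apart. This comparison shares libraries with that of NCoR with KLA above, in a table with its own peaks.

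The NCoR region 15.9 kb upstream of Ctsd had 191 and 179.8 tags with KLA alone and 29.6 and 40.5 with ERKi and KLA (log2 change -2.40 with an SE of 0.23, edgeR adjusted p = 4.5e-05), and it was among the 7 under TMM, with -1.23. Atp6v1b2 50.8 kb upstream had 202 and 208 tags with KLA alone and 53.3 and 43.1 with ERKi and KLA, and Ctsc 6.4 kb upstream had 242 and 232 tags with KLA alone and 85.4 and 86.2 with ERKi and KLA. The ERKi libraries were the lower ones at all 3 regions, and the last pair were not called under TMM (-0.92 and -0.30). The Lamp1 promoter, with 347 and 309 tags with KLA alone and 139 and 128 with ERKi and KLA, had -1.30 and under TMM -0.13.

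PGC1b with ERKi and KLA against DMSO and KLA had 0 of 228 regions called by edgeR (0.108% higher and 0.178% lower over all), 34 with an unadjusted p under 0.05 and 2 called by DESeq2, both lower. The median was -0.33 against -0.20. Ctsc 33.7 kb upstream had 8.12 and 8.74 tags with DMSO and Veh, 122 and 95.3 with DMSO and KLA, and 20.3 and 41.4 with ERKi and KLA, and at 7.4 kb upstream it had 6.5 and 13.1 tags with DMSO and Veh, 84.9 and 61 with DMSO and KLA, and 23.5 and 19.4 with ERKi and KLA. At both the ERKi libraries lay below the DMSO and KLA libraries without overlap. Ctsc 149.4 kb upstream had 4.87 and 7.29 tags with DMSO and Veh, 109 and 90.8 with DMSO and KLA, and 111 and 102 with ERKi and KLA, where the inhibitor groups overlapped. KLA with DMSO had raised all 3 regions, and these comparisons share the DMSO and KLA libraries.

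After 4 days of RANKL p300 was higher at 67 of 136 regions and lower at 3 (62.2% and 0.248% of all), with a median of 1.30 against 1.84 over all. Under TMM the median was -0.32 against 0.22 over all, with 8 higher and 13 lower (8.8% and 3.83% of all under TMM). V1 loci had 21 of 29 regions higher and 0 lower, with a median of 2.56, other lumenal proteins 17 of 29 with 1.75, and proteases 12 higher and 2 lower of 40 with 0.87. Under TMM these medians were 0.95, 0.12 and -0.73, so that of the proteases changed sign. Without day 4 replicate 1 or replicate 2 the count of 70 became 19. The summed p300 tags at 6 osteoclast marker genes were 87.9 and 91.6 at day 0 and 566 and 650.3 at day 4, and those at 6 macrophage markers 175 and 194 against 434 and 558. Their part in the result was not tested.

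Atp6v1a 19.3 kb downstream, in an intron, had 29.9 and 34.1 tags at day 0 and 232 and 204 at day 4 (log2 change 2.78 with an SE of 0.34, edgeR adjusted p = 1.5e-04). At 15.7 kb downstream it had 4.4 and 4.26 tags at day 0 and 78.2 and 78.3 at day 4 (log2 change 4.13 with an SE of 0.58, edgeR adjusted p = 2.6e-04). Both stayed called under TMM, with 1.17 and 2.52, and the days did not overlap. Atp6v1g1, the G subunit of V1, had 0 and 6.39 tags at day 0 and 104 and 101 at day 4 at 14.2 kb upstream and 0 and 0 tags at day 0 and 44 and 57.9 at day 4 at 12.97 kb upstream. Atp6v1h, the regulatory H subunit, had 0 and 2.13 tags at day 0 and 32.3 and 28.4 at day 4 at 1.5 kb downstream. These Atp6v1g1 and Atp6v1h regions, near 0 at day 0, were listed for their day 4 peaks. All 3 were called in either scaling, Atp6v1h in 2 of 4 fits with a library left out.

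Hexa 5.3 kb downstream had 40.4 and 38.3 tags at day 0 and 189.7 and 172 at day 4 (log2 change 2.19 with an SE of 0.33, edgeR adjusted p = 4.2e-04) and Lipa 11.7 kb downstream 86.1 and 78.8 tags at day 0 and 315 and 275 at day 4 (log2 change 1.83 with an SE of 0.30, edgeR adjusted p = 6.7e-04). Neither was called under TMM. The regions that fell were at Ctsl, 8.9 kb downstream with 80.9 and 78.8 tags at day 0 and 13.7 and 7.94 at day 4 (log2 change -2.85 with an SE of 0.50, edgeR adjusted p = 8.1e-04) and 9.4 kb downstream with 29 and 38.3 tags at day 0 and 1.96 and 3.4 at day 4, and at the promoter of Mcoln1, a lysosomal cation channel, with 51 and 93.7 tags at day 0 and 35.2 and 28.4 at day 4. The days overlapped at none of the 3, and the Mcoln1 call held in 1 of 4 fits with a library left out. ERK1 at day 4 against day 0 had 0 of 114 regions called by edgeR (2.33% higher and 0.0267% lower over all), 0 by DESeq2, and a median of 1.04 against 1.00. An unadjusted p under 0.05 was found at 41 of the 114 and at 4782 of all 14957 ERK1 regions. The second ERK1 day 4 library carries another date and replicate number in its description, and lacks the mark NCoRWT that the other 3 ERK1 libraries of this set have there, though all are labelled Wild type.

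**Figure D5:**
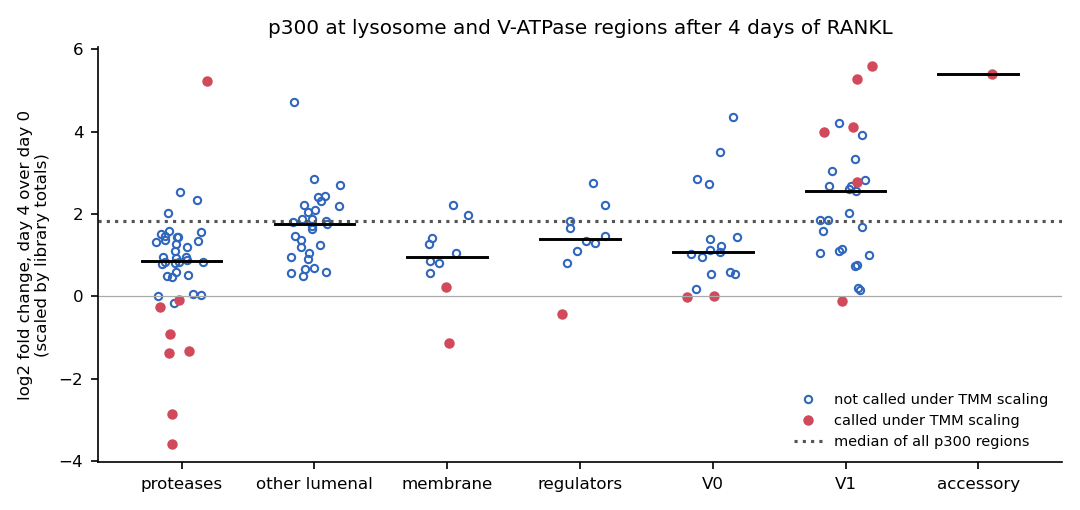
Log2 fold change of p300, day 4 of RANKL over day 0 (y axis), at the regions of each group of genes, 1 point a region, red where called under TMM. Solid bars are group medians, the dotted line is the median of all p300 regions, and 1 region with a group at 0 tags is left out of the points alone. The V1 bar lies above the dotted line and the protease bar below it.

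Another 50 lysosome and V-ATPase genes were counted the same way. NCoR with KLA was higher at 32 and lower at 53 of their 260 regions, HDAC3 at 32 and 33 of 227, p65 at 100 and 21 of 230, p300 at 84 and 70 of 311, PU.1 at 6 and 55 of 262, PGC1b at 24 and 15 of 195, and p300 at day 4 at 86 and 0 of 141. Fosl2 was higher at 8 and lower at 12 of 150 and ERK1 at 8 and 10 of 149. Atp6v0d2, a V0 subunit prominent in osteoclasts, held the lower region with the lowest p in p65, Fosl2, PU.1, PGC1b, ERK1 and p300, with log2 fold changes from -3.04 to -2.00. Mitf, the third MiT factor of this set, held the higher one in p65, Fosl2, PU.1 and p300 at day 4, with 3.12, 4.96, 2.34 and 5.60. H3K27ac with KLA was higher at 7 and lower at 2 of 87 in WT, 2 and 11 in NKO, 5 and 32 of 106 with DMSO, 2 and 26 of 109 in flox, and 0 and 41 in flox-Cre, and the PGC1b flox-Cre difference of responses was called at 1 upward and 12 downward.

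Some genes had no region in a table. Mcoln1 had none in the NCoR, p65, Fosl2, PU.1 and ERK1 KLA tables, Gaa (acid alpha-glucosidase) none in HDAC3, p65, Fosl2, PGC1b, ERK1 and p300, Atp6v1h none in HDAC3, p65, Fosl2, PU.1 and ERK1, and Ctsa none in NCoR and HDAC3. Atp6v1g1 had none in Fosl2, PGC1b and ERK1, Atp6v1f none in Fosl2 and PGC1b, Glb1 none in PGC1b and ERK1, and Atp6ap2 none in Fosl2. In the H3K27ac tables Atp6v0e had none, and Gaa, Lamp1 and Mcoln1 none in the DMSO and flox tables. At day 0 and day 4 ERK1 had none at Asah1, Atp6ap1, Atp6ap2, Atp6v0b, Atp6v1f, Atp6v1h and Glb1, and p300 none at Atp6ap1, Atp6v1f, Gaa and Tfe3. A table lists called peaks only, so an absent region says that no peak was called there.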

How the data were processed

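The data are ChIP-seq tag counts from 70 libraries in 37 groups, in 15 tables that list peaks with their nearest gene. The authors aligned reads to mm10 with Bowtie2, called and annotated peaks with HOMER, chose reproducible peaks by IDR, and deposited raw tag counts per peak in each library, with at most 3 tags per position. Versions are not given in the sources used here. Factor peaks have the width of the peak, and H3K27ac regions in the DMSO and flox tables are windows of 1000 bases. Every count column was assigned to a sample from its label, and 0 columns were left unmapped. The 30 input libraries were not analysed here.

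Counts were tested table by table in edgeR 4.0.16 under R 4.3.3 with the quasi-likelihood F test, library sizes set to the mapped totals in the file headers (4.30 to 21.5 M tags), all groups of a table in 1 fit and Benjamini-Hochberg adjustment over all its regions. A region entered a test with 4 tags or more in at least 1 library, or 16 for H3K27ac. Tables were joined and sites drawn with Python 3.11.15, pandas 2.3.3 and matplotlib 3.10.9. The test between a pair of groups was tried on simulated counts first. No such trial is reported here for the differences of responses. At these depths a region of a few tags is known only within its counting error. Alternatives were TMM, DESeq2 1.42.0 with its own size factors, no filter, the replicate number as a block, and each library left out in turn.

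Gene names and annotation are those in the tables, and 2794 of 2866 distances to a start (97.5%) lay within 100 bases of that in the mm10 reference annotation. Promoter sequences came from RefSeq, and letters were searched on both strands. The text names the called regions with the lowest p, at most 10 in each direction of a comparison, the promoter regions of 12 genes fixed by name, and the most tagged distal region of each gene; the shared sites and the motifs were chosen after values had been seen. The 40 genes, the other gene lists and the tests were chosen with earlier results of these data known. Same-numbered libraries of different groups showed little shared deviation, with correlations of deviations between -0.0266 and 0.0878 over 31 pairs of groups. Deviations of single regions carry counting error, so this cannot exclude that the numbers pair libraries. Replicates differed by more than sampling noise, with a chi-square per degree of freedom of 1.31 to 4.05.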

Additional observations from a re-analysis of the deposited data

Results flagged for a closer look

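The response of H3K27ac to KLA differed between the NCoR genotypes at 2 regions of the lysosome genes, by edgeR's test of the difference itself. They were Tfeb 18.9 kb upstream of its internal start, with a difference of -1.26 on the log2 scale, and Ctsd 2.3 kb upstream, with -1.56. Neither was called under TMM.

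The response differed between PGC1b flox/flox macrophages with and without LysMCre at 19 regions, by the same kind of test, and every difference was negative. Those with the lowest p were Ctsb 8.4 kb downstream (-1.50), Tfeb 16.9 kb upstream of its internal start (-1.31), Npc1 12.2 and 11.8 kb downstream (-1.48 and -1.35, in overlapping windows), Ctsd 5.5 kb upstream (-1.22), the Cd68 promoter (-1.05), Npc2 20.9 kb downstream (-1.06), Atp6v1a 2.5 kb downstream (-1.14), and Ctsd 2.6 and 6.6 kb upstream (-1.21 and -1.03). Summed tags at macrophage marker genes and the share of tags in regions were lowest in the same flox-Cre KLA libraries, and their part in the result was not tested. With 2 libraries in a group, no group was large enough to test for a library far from the others.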

How the results depend on the processing

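The counts of called regions of the 40 genes depended on the scale and, in some tables, on single libraries. Scaling by TMM changed the count by over 1.5 times in Fosl2 (38 for 13), PGC1b with DMSO (22 for 41), NCoR with ERKi (16 for 159), p300 at day 4 (21 for 70), H3K27ac in NKO over WT with Veh (0 for 1) and KLA (1 for 2), the difference of their responses (0 for 2), flox-Cre with KLA (32 for 50), flox-Cre over flox with KLA (4 for 20) and the difference of those responses (10 for 19). DESeq2 with its own size factors gave, in the same order, 45, 26, 23, 9, 0, 1, 0, 32, 4 and 10, and 2 for 0 in PGC1b with ERKi. With no filter on low counts the difference between the NKO and WT responses had 5 regions called for 2. Both scalings centre most regions on 0, and the shares of tags in regions given above moved with the groups in these tables. The cause was not tested otherwise.

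Among named promoters called on either scale, the sign turned for few. Turns at promoters called on neither scale were not counted. They did occur, as at the upstream Tfeb promoter for RGFP966 over DMSO (0.21, and -0.13 under TMM). Sqstm1 in p65 turned to -0.0394 under TMM and -0.0067 by DESeq2. In p300 at day 4 the promoters of Cd63 (-0.55 and -0.45) and Sqstm1 (-0.17 under TMM) turned as well, and Atp6v0d1, not called on library totals, was called with -1.58 under TMM. Of 513 values of named regions in all, 60 lost and 15 gained a call under TMM, and 61 and 14 by DESeq2.

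With the replicate number as a block the counts were 2 for 13 in Fosl2, 2 for 0 in ERK1 at day 4 and 1 for 2 in NKO over WT with KLA, and stayed within 1.5 times elsewhere. Whether the numbers pair libraries is not known, and among the named regions 23 lost and 1 gained a call.

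Leaving out each library in turn, with the lone library of its group assumed to vary like the other groups, gave these ranges of called regions. They were 42 to 117 for NCoR, 18 to 75 for HDAC3, 56 to 138 for p65, 0 to 55 for Fosl2, 37 to 41 for PU.1, 10 to 55 for PGC1b, 0 to 12 for ERK1, 91 to 143 for p300, 17 to 29 for PGC1b with DMSO, 0 in every fit for PGC1b with ERKi, 80 to 144 for NCoR with ERKi, 0 to 6 for ERK1 at day 4 and 19 to 90 for p300 at day 4. H3K27ac gave 7 to 13 in WT, 8 to 11 in NKO, 0 to 1 for NKO over WT with Veh and 0 to 1 with KLA, 0 to 6 for their difference of responses, 34 to 43 with DMSO, 21 to 27 for RGFP966, 22 to 24 in flox, 46 to 52 in flox-Cre, 0 to 1 for flox-Cre over flox with Veh, 17 to 22 with KLA and 16 to 23 for the difference of responses. The libraries whose loss moved a factor's count by over 1.5 times were both Fosl2 Veh (0 each) and both Fosl2 KLA (41 and 55), both HDAC3 Veh (18 and 20), both NCoR KLA (51 and 42, and 80 and 84 against ERKi), both p65 KLA (80 and 56), p300 KLA replicate 2 (91), both p300 day 4 (19 each), both ERK1 KLA (0 and 3), PGC1b Veh (10 and 12) and KLA replicate 2 (55), and PGC1b with DMSO and Veh (17 and 24) and DMSO and KLA replicate 1 (23). The depth leaves regions of few tags known only within their counting error.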
